A study of Mus musculus with 6 samples.

Results

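The miRNAs described here are the 9 guide strands of 2 paralogous clusters: mmu-miR-17-5p, mmu-miR-18a-5p, mmu-miR-19a-3p, mmu-miR-20a-5p, mmu-miR-19b-3p and mmu-miR-92a-3p of miR-17-92, and mmu-miR-106b-5p, mmu-miR-93-5p and mmu-miR-25-3p of miR-106b-25. The mouse prefix is left out below. They were chosen by name and are 9 of the 1247 mouse miRNAs on the array. The series compared whole kidney of male C57BL/6 mice, a standard inbred strain, at 2 months (young, 3 arrays) and 20 months (aged, 3 arrays), with no treatment or altered allele named in the labels. Each array held 1 preparation of total RNA, of which 100 ng was labelled with Cy3. Nothing in the labels says that the 6 preparations came from separate animals, and the p-values cover only the variation among them, which may be technical. Since whole kidney was measured, fewer cells of a type and less RNA per cell cannot be told apart.

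A miRNA guides its protein partner to transcripts that pair with its seed, the bases near its 5′ end, and lowers their output. The miR-17-92 transcript is driven by MYC and E2F factors and is high in dividing and embryonic cells. The miR-106b-25 hairpins lie in an intron of Mcm7, a gene for a subunit of the helicase that opens DNA for replication. Members with the miR-17 seed repress the cell cycle inhibitor Cdkn1a, and the miR-25 and miR-92a seed represses the death-promoting gene Bcl2l11. In kidney, miR-17-92 is needed in nephron progenitors and is raised in polycystic disease. The arrays hold no measure of cell division, so the link to proliferation is background only.

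The mature sequences of all 9 members were found in RefSeq (GRCm38.p6) and are shown because the results turn on which members share a seed and how far their probes could tell them apart. They are written 5′ to 3′, with the seed, bases 2 to 8, in capitals.
miR-17-5p: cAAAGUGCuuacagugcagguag
miR-20a-5p: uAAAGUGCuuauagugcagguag
miR-106b-5p: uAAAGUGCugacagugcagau
miR-93-5p: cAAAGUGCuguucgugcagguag
miR-18a-5p: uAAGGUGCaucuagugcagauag
miR-19a-3p: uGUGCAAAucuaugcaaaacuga
miR-19b-3p: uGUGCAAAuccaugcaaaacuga
miR-92a-3p: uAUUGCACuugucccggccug
miR-25-3p: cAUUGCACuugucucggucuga

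The 9 members carried 4 distinct seeds, and 2 of the seeds occur in both clusters. AAAGUGC is shared by 4 members (miR-17-5p, miR-20a-5p, miR-106b-5p and miR-93-5p), and the seed of miR-18a-5p differs from it by 1 base, A4G counted from 1 at the 5′ end of miR-17-5p. miR-17-5p and miR-20a-5p differ at 2 of 23 bases (C1U and C12U), and miR-17-5p and miR-106b-5p at 3 of the 21 bases compared. miR-19a-3p and miR-19b-3p differ at a single base outside the seed, U11C. miR-92a-3p and miR-25-3p differ at 3 of 21 bases (U1C, C14U, C18U). In that assembly the 6 hairpins of miR-17-92 span 836 bases of the plus strand of chromosome 14 (chr14:115043671-115044506), in the order miR-17, miR-18a, miR-19a, miR-20a, miR-19b-1, miR-92a-1. The 3 hairpins of miR-106b-25 span 498 bases of the minus strand of chromosome 5 (chr5:138165321-138165818), inside the Mcm7 gene, in the order miR-106b, miR-93, miR-25. miR-19b-3p and miR-92a-3p each have 2 loci, the second on the X chromosome, so their signal sums both.

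Levels are given as scaled signal on a log2 scale, on which 0 is the 75th percentile of the probes detected on all 6 arrays and -5.22 is the floor below which values were set. Probes differ in how well they capture and label their target, so the order below is one of signal and not of abundance. In the AAAGUGC class, miR-20a-5p stood at -0.42, -0.53 and -0.37 in young kidney and at -0.58, -0.44 and -0.37 in aged kidney. miR-106b-5p stood at -0.43, -0.49 and -0.38 in young and at -0.65, -0.45 and -0.54 in aged kidney. These 2 were alike in signal: miR-20a-5p was the brighter on 5 of 6 arrays, by 0.04 on average. miR-93-5p stood at -0.9997, -1.03 and -0.92 in young and at -1.13, -0.96 and -0.83 in aged kidney. miR-17-5p, the founding member, lay near the floor at -4.94, -4.79 and -4.79 in young and at -5.08, -4.83 and -4.69 in aged kidney. The young and aged values of each of these 4 miRNAs overlapped. One of the 2 miR-17-5p probes was well above background on every array and the other on none, and its summed intensity was 34.6 to 72.3 units against 784 to 1518 for miR-20a-5p.

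The miR-19 pair held the brightest member and the one with the least overlap between ages. miR-19b-3p stood at 0.46, 0.37 and 0.51 in young and at 0.28, 0.39 and 0.28 in aged kidney. All its aged values but 1 lay below every young value, and that 1, on aged array 2, lay just above young array 2. miR-19a-3p stood at -2.56, -2.64 and -2.55 in young and at -2.88, -2.75 and -2.91 in aged kidney, and every aged array lay below every young one. In the AUUGCAC class, miR-25-3p stood at -1.25, -1.33 and -1.13 in young and at -1.38, -1.31 and -1.23 in aged kidney. miR-92a-3p stood at -1.75, -1.69 and -1.58 in young and at -1.57, -1.88 and -1.53 in aged kidney, overlapping like miR-25-3p. The single miRNA with the AAGGUGC seed, miR-18a-5p, stood at -4.47, -4.43 and -4.22 in young and at -4.49, -4.39 and -4.47 in aged kidney. It was well above background on 3 of 6 arrays (2 young, 1 aged) and was therefore not tested.

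**Figure D1:**
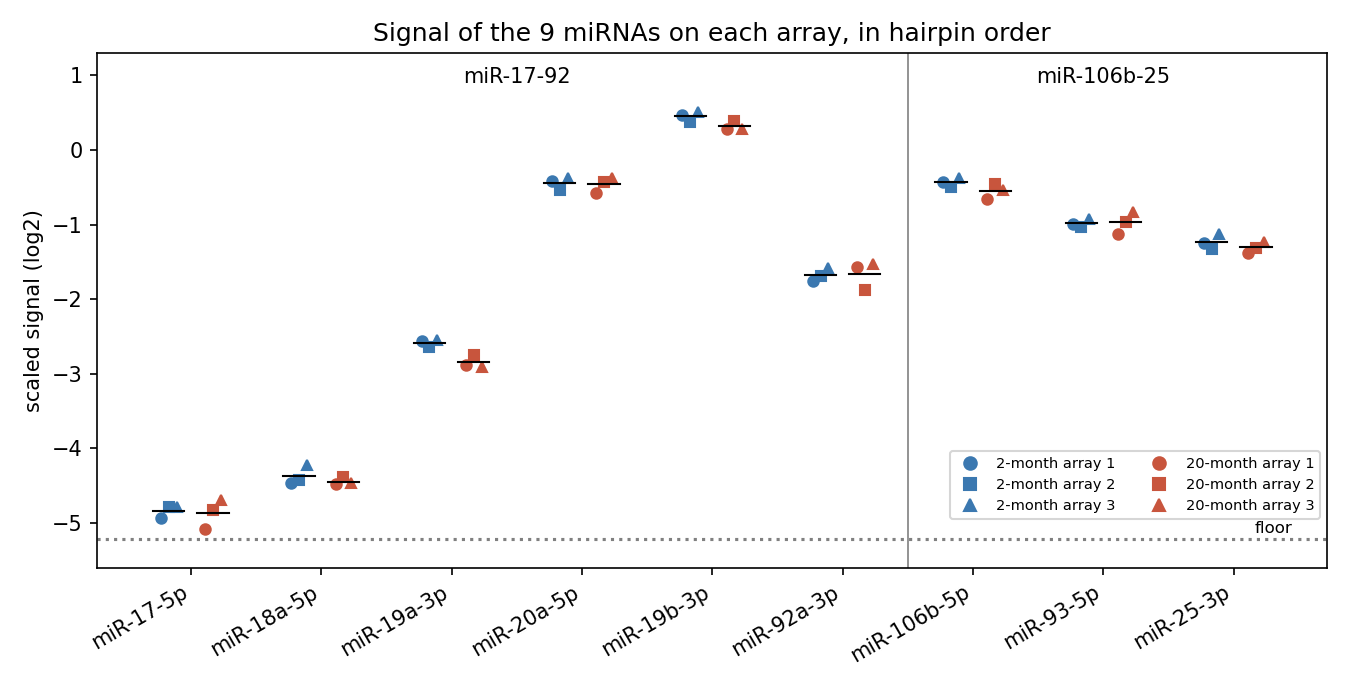
Scaled signal (log2, y axis) of the 9 miRNAs (x axis, in hairpin order within each cluster) on the 3 arrays of 2-month kidney (blue) and the 3 of 20-month kidney (red); black lines are group means and the dotted line is the floor of -5.22. miR-17-92 members range from -4.85 (miR-17-5p) to 0.38 (miR-19b-3p) in mean signal, and miR-106b-25 members from -1.27 to -0.49.

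By mean signal over the 6 arrays, miR-19b-3p (0.38) led, followed by miR-20a-5p (-0.45), miR-106b-5p (-0.49), miR-93-5p (-0.98), miR-25-3p (-1.27), miR-92a-3p (-1.67), miR-19a-3p (-2.72), miR-18a-5p (-4.41) and miR-17-5p (-4.85). Each neighbouring pair kept this order on 6 of 6 arrays except miR-20a-5p and miR-106b-5p. The order of the last 2 depends on summing probes, as a probe detected on no array gave 35.6% of the miR-18a-5p signal. By the brighter probe of each, miR-17-5p averaged -4.94 in young and -5.00 in aged kidney. For miR-18a-5p these means were lower, at -5.00 and -5.09. The values of miR-93-5p and miR-25-3p overlapped between arrays, although miR-93-5p was the brighter on each array. The median level was -2.19 for the 6 miR-17-92 members and -0.98 for the 3 miR-106b-25 members, with ranges of -4.85 to 0.38 and -1.27 to -0.49. The low end of the first range is set by 2 members near the floor, and its top member sums a second locus. Signal also spread within seed classes: the AAAGUGC class ran from -4.85 to -0.45, the miR-19 pair stood at -2.72 and 0.38, and the AUUGCAC pair stood at -1.67 and -1.27.

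Age was the single factor of the series, and of the 8 members tested none rose or fell in aged kidney at a limma adjusted p under 0.05. Over all 193 miRNAs tested, 15 passed that threshold, or 7.77%, of which 8 were higher (4.15%) and 7 lower (3.63%) in aged kidney. That split was 18 higher and 3 lower when scaled to the median of detected probes, and 13 and 1 under quantile normalization. It was 4 and 0 with normexp, and 10 and 0 in the authors' processed values. Other processings kept it closer to even. It was 7 and 5 when scaled to the 75th percentile of all probes, and 10 and 10 by the mean of log2 over probes. By the brightest probe it was 9 and 7, and with outlier spots kept 7 and 7. Without aged array 1 it was 12 higher and 27 lower. One member, miR-19a-3p, had an unadjusted limma p under 0.05, as had 49 of the 193 (25.4%). It was also the one member whose groups did not overlap. Among all tested, 39 miRNAs lay lower in aged kidney without overlap (20.2%) and 20 lay higher (10.4%). Differences were below 0 for 6 of the 8 members, and for 128 of the 193 (66.3%). The median difference was -0.05 for the 8 members and -0.08 for all 193, so the members lay close to the bulk of the array.

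miR-19a-3p stood at -2.58 ± 0.05 in young and -2.85 ± 0.08 in aged kidney (SD, n = 3), a difference of -0.26 ± 0.08 (log2, SE), or 1.2-fold lower. Its 95% confidence interval ran from -0.45 to -0.08, and its limma adjusted p was 0.0843. It had the lowest difference of the members in each of 22 alternative processings, and passed the threshold in none of them (limma adjusted p = 0.0512 to 0.959). In many of these the rank was not free to change. Scaling by a constant shifts all members above the floor alike. Changes of floor, detection filter or variance model left the difference of miR-19a-3p at -0.26. The sign was not fixed: the difference was 0.15 when arrays were scaled to the 75th percentile of all probes, a scaling that moved the median of all tested miRNAs up by 0.41. miR-19b-3p stood at -0.13 ± 0.08, with an interval of -0.31 to 0.05 (limma adjusted p = 0.328). Both probes of each miRNA gave nearly the same difference, -0.25 and -0.29 for miR-19a-3p and -0.13 and -0.13 for miR-19b-3p.

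The intervals of the 4 miRNAs of the AAAGUGC class all included 0. miR-106b-5p, the first hairpin of its cluster, stood at -0.12 ± 0.08 (limma adjusted p = 0.393) with an interval of -0.32 to 0.08. miR-17-5p stood at -0.03 ± 0.12 and its neighbour miR-20a-5p at -0.02 ± 0.09, both at a limma adjusted p of 0.9. miR-93-5p stood at 0.01 ± 0.10 (limma adjusted p = 0.93), with an interval of -0.22 to 0.25. For miR-17-5p the interval, -0.31 to 0.26, was the widest of the 8. Its signal was within 0.37 of the floor on average.

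In the AUUGCAC class, miR-25-3p stood at -0.07 ± 0.09 (limma adjusted p = 0.632) with an interval of -0.28 to 0.14. miR-92a-3p stood at 0.01 ± 0.12 (limma adjusted p = 0.95), between -0.27 and 0.29. For miR-18a-5p, not tested, aged kidney averaged 0.07 less than young on the log2 scale (-4.45 ± 0.05 against -4.37 ± 0.14, SD, n = 3). Across the 8 tested members the intervals spanned 0.732-fold (miR-19a-3p) to 1.22-fold (miR-92a-3p) of the young level.

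**Figure D2:**
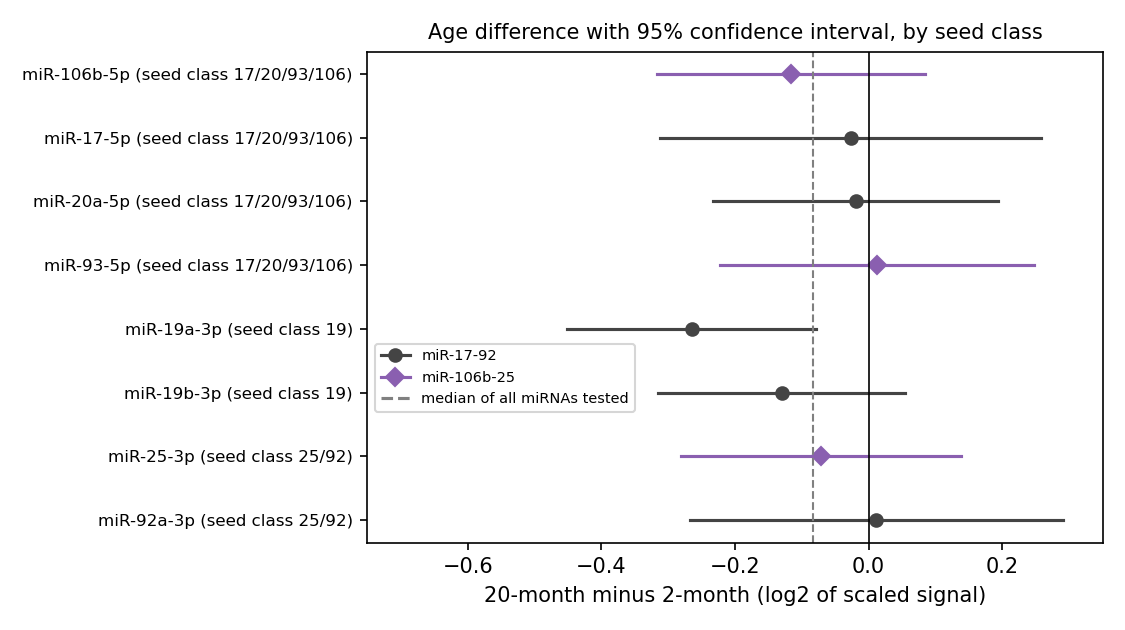
Difference in scaled signal between 20-month and 2-month kidney (log2, x axis) of the 8 tested miRNAs, ordered by seed class; bars are 95% confidence intervals from limma and the dashed line is the median of all tested miRNAs, -0.08. The interval of miR-19a-3p, -0.45 to -0.08, lies below 0, and the other 7 intervals include 0.

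By cluster, the median difference was -0.03 over the 5 tested members of miR-17-92 (4 of 5 below 0) and -0.07 over the 3 of miR-106b-25 (2 of 3 below 0), against -0.08 for all tested. By seed class it was -0.02 for the AAAGUGC class, -0.20 for the miR-19 pair and -0.03 for the AUUGCAC pair. Single arrays stood out across the members. Of the 9 members, 7 had their lowest value on aged array 1, and 5 had their highest on young array 3 and 4 on aged array 3. The tested members of miR-17-92 averaged 0.10 above their own mean on young array 3 and -0.11 on aged array 1, and those of miR-106b-25 0.11 and -0.14. The median deviation of all tested miRNAs on the same arrays was 0.10 and -0.04. Aged array 1 also had the widest spread of negative control spots, with an SD of 133 intensity units against 6.85 to 9.66 on the other 5 arrays. The part of that spread in the members' values was not tested. Without aged array 1, the difference of miR-19a-3p was -0.25, at a limma adjusted p of 0.132, and 0 members passed, while 39 of the 193 did.

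By inferred slide position, the young arrays and aged array 1 lay in row 1, and aged arrays 2 and 3 in row 2. The labels give no slide position and do not say whether the arrays shared a slide. Within row 1, aged array 1 stood at -0.30 against the young mean for miR-19a-3p, -0.24 for miR-17-5p, -0.22 for miR-106b-5p, -0.17 for miR-19b-3p and -0.14 for miR-20a-5p. It stood at -0.15 for miR-25-3p, -0.14 for miR-93-5p and 0.10 for miR-92a-3p. The offset of miR-92a-3p thus had the opposite sign to those of the other tested members. Its value on aged array 1, -1.57, was close to that on young array 3, -1.58. Its signal sums a second locus, as does that of miR-19b-3p, and the part of that locus was not tested. Since row 2 held aged arrays alone, the age difference with slide row as a block is that of aged array 1 against the 3 young arrays. That fit takes the spread of a lone array from the other arrays, and in it 0 of the 8 members passed (limma adjusted p = 0.269 for miR-19a-3p, 1 member at an unadjusted p under 0.05).

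Pairs with a shared seed were compared within each array, since a ratio of 2 signals above the floor does not depend on how the array was scaled by a constant. That does not hold for miR-17-5p, which lies near the floor. Of the 4 pairs, 3 set a miR-106b-25 member over its miR-17-92 counterpart, and the other set miR-19a-3p over miR-19b-3p. Signal of miR-106b-5p over miR-17-5p was 4.50, 4.29 and 4.42 (log2) in young and 4.43, 4.37 and 4.15 in aged kidney. That of miR-93-5p over miR-20a-5p was -0.58, -0.50 and -0.55 in young and -0.55, -0.53 and -0.46 in aged kidney. Both ratios overlapped between ages. That of miR-25-3p over miR-92a-3p was 0.51, 0.36 and 0.45 in young, and 0.19, 0.57 and 0.30 in aged kidney, where the spread (SD 0.20, n = 3) exceeded that of the young arrays (SD 0.08). The differences between ages were -0.09, 0.03 and -0.08 for these 3 pairs, with exact two-sided permutation p-values of 0.6, 0.5 and 0.6 (0.6 each after adjustment over the 4 pairs). The age difference of miR-106b-5p over miR-17-5p was -0.11 without scaling and -0.049 in the authors' processed values. Under quantile normalization the differences of the 3 pairs were -0.27, 0.045 and -0.13. With normexp they were -0.013, 0.021 and -0.039. Leaving out 1 array moved some of these differences between ages by over 1.5 times. Without young array 3 they changed little, at -0.083, 0.029 and -0.075 in the order of the pairs. Without aged array 3 they were -0.0044 for miR-106b-5p over miR-17-5p, 0.0048 for miR-93-5p over miR-20a-5p and -0.055 for miR-25-3p over miR-92a-3p. Without aged array 1 they were -0.14, 0.051 and -0.0015 in the same order. Without young array 1 they were -0.039, 0.013 and -0.049, and without young array 2 they were -0.14, 0.053 and -0.12. Without aged array 2 they were -0.12, 0.040 and -0.19. No shift of 1 cluster against the other was detectable with these arrays, among which 3 against 3 cannot go below a p of 0.1.

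Within miR-17-92, the ratio of miR-19a-3p over miR-19b-3p was -3.02, -3.01 and -3.06 in young and -3.17, -3.14 and -3.19 in aged kidney. Every aged array lay below every young one, and the difference of -0.13 exceeded the SDs of 0.03 and 0.02 (n = 3 per group). The exact permutation p was 0.1, the smallest that 3 against 3 allows, and 0.4 after adjustment over the 4 pairs. The ratio was lower in aged kidney under each of 17 alternatives, at -0.16 to -0.02, but many of these could not turn its sign. Scaling by a constant or moving the floor left the difference at -0.13. Groups that do not overlap also keep their order when 1 array is left out. The difference shrank to -0.07 with normexp background correction (exact permutation p = 0.7). Under quantile normalization it shrank to -0.02 (exact permutation p = 0.8). The 2 sequences differ by the single base U11C, and whether signal of one reached the probes of the other was not tested.

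**Figure D3:**
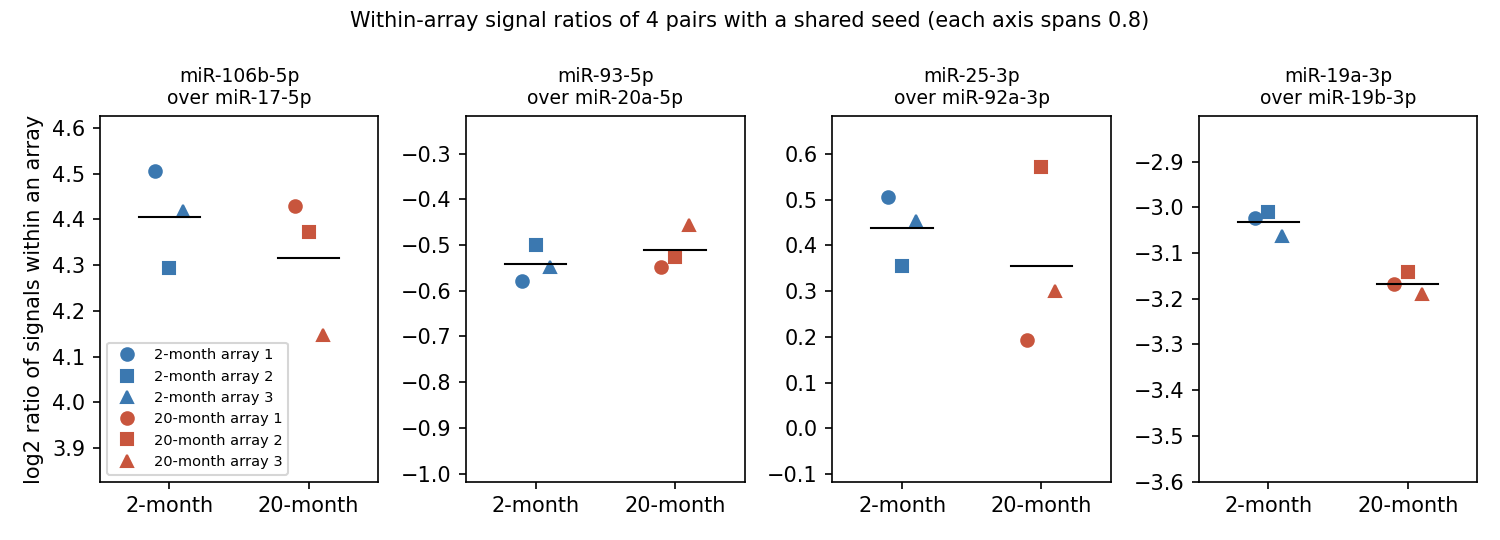
Log2 ratio of 2 signals within an array (y axis, each panel spanning 0.8) for 4 pairs of miRNAs with a shared seed, on the 2-month arrays (blue) and 20-month arrays (red); circles, squares and triangles are arrays 1, 2 and 3 of a group and lines are group means. The ages overlap in the first 3 panels, and in the panel of miR-19a-3p over miR-19b-3p all aged values (-3.19 to -3.14) lie below all young values (-3.06 to -3.01).

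Other miRNAs of the same hairpins and of paralogous loci were mostly below detection. Of 22 such miRNAs listed, 21 are on the array under the names used, 2 were well above background on any array, and 1 was tested, with 0 called higher and 0 lower by limma. Of the 9 opposite arms, miR-17-3p alone was detected, on 3 of 6 arrays, at -4.64, -4.72 and -4.64 in young and at -4.73, -4.62 and -4.37 in aged kidney. These values lie near the floor, as do those of miR-17-5p from the same hairpin. miR-92b-3p, miR-32-5p and miR-367-3p, which share the AUUGCAC seed, were not well above background on any array.

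Of the mature forms listed for the X-linked paralogous cluster alone, miR-20b-5p was well above background, and its sequence is shown because it is so close to that of miR-20a-5p.
miR-20b-5p: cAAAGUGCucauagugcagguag
It differs from miR-20a-5p at 2 of 23 bases, U1C and U10C. It stood at -1.27, -1.32 and -1.13 in young and at -1.34, -1.23 and -1.20 in aged kidney, a difference of -0.01 ± 0.08 (limma adjusted p = 0.913). None of the other 8 forms that the list gives to that cluster and that are on the array was well above background. That list leaves out miR-19b-3p and miR-92a-3p, which that cluster also encodes and which were detected on all 6 arrays. On each array miR-20b-5p lay below miR-20a-5p by nearly the same amount, at -0.85 to -0.76 (mean -0.80 ± 0.04, SD, n = 6). Whether miR-20a-5p reached the miR-20b-5p probes was not tested.

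Outside the members, the miRNA whose course over the 6 arrays lay closest to the mean of either cluster was miR-30e-3p, by root mean square distance between centred log2 values. Its distance was 0.02 from miR-17-92 and 0.02 from miR-106b-25, against medians of 0.14 and 0.16 over the 185 other tested miRNAs. miR-497-5p and miR-34b-5p came next for miR-17-92, both at 0.03. miR-30e-5p and miR-20b-5p came next for miR-106b-25, at 0.02 and 0.03. The tested members themselves lay at 0.05 to 0.13 and 0.03 to 0.05 from their own cluster's mean.

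The sign of most of these differences changed with the scaling. Under the 16 alternatives that kept all arrays, miR-20a-5p ranged from -0.14 to 0.39, miR-106b-5p from -0.22 to 0.30 and miR-92a-3p from -0.05 to 0.42. The upper end of each range came from scaling to the 75th percentile over all probes, most of which were not detected on all arrays. Among those 16, miR-92a-3p fell below 0 only with normexp (-0.051) and with outlier spots kept (-0.017), which are not scalings. In each of the 22 alternatives 0 members passed the limma threshold. The median of the members lay above that of all tested miRNAs in 19 of the 22, by at most 0.05. In the rest it lay below, with a gap of at most -0.09. Several of the 22 could not move this gap. It was 0.034 as reported, and stayed so when scaled to the 75th percentile over all probes or the median of detected probes. A lower floor, another variance model and the replicate block also left it at 0.034.

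**Figure D4:**
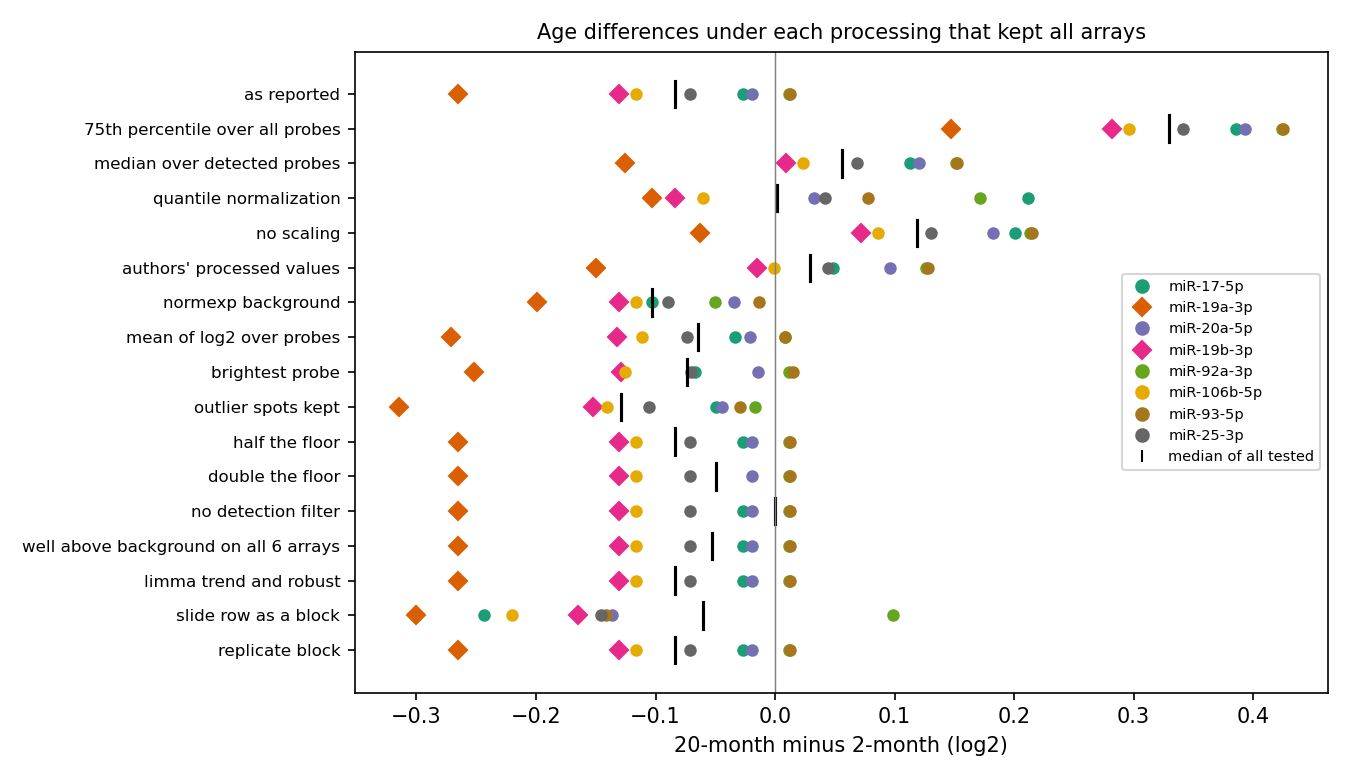
Difference between 20-month and 2-month kidney (log2, x axis) of the 8 tested miRNAs under the reported processing and the 16 alternatives that kept all arrays (y axis); diamonds are the miR-19 pair and black bars the median of all miRNAs tested. miR-19a-3p is leftmost in each line, and scaling to the 75th percentile over all probes moves all points and the median to the right.

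On each array, 177 to 209 miRNAs were well above background, and the 75th percentile used for scaling ranged from 1171 to 2054 intensity units. All 7 kidney markers examined (such as miR-192-5p and miR-204-5p) were well above background on all 6 arrays. Of 5 markers of other organs, 4 were on none, while miR-124-3p was on the 3 aged arrays. miR-124-3p thus entered the test through the aged arrays alone, and every young value was set to the floor. It passed the limma threshold, at a difference of 1.37 (limma adjusted p = 8.6e-05). That difference is measured from the floor, and its p-value rests in part on young values without spread (SD 0). None of the erythroid or leukocyte markers tested passed the limma threshold (0 of 3 and 0 of 5), although their summed levels did not overlap between ages. The summed level of the 5 erythroid markers on the array, of which 3 were detected throughout, was 3.07 to 3.24 in young and 2.68 to 2.85 in aged kidney. That of the 6 leukocyte markers, of which 5 were detected throughout, was -0.32 to -0.12 in young and 0.02 to 0.27 in aged kidney. Their part in the values of the members was not tested.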

How the data were processed

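Kidney RNA was hybridised to 1-colour Agilent miRNA arrays of design 046065 (build mm9), read with Feature Extraction 11.5.1.1, per the file headers. The deposited spot values are intensity, background-subtracted by that software and not scaled between arrays, per the file headers. The deposited flags (well above background, outlier, saturated) are other values of 0 or 1 per spot. The authors' processed table is on a log2 scale and equalled log2 of the total signal per miRNA less a constant per array (largest departure 1.02e-05); what the constant is remains unknown.

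For each probe (20 spots for a member's), the mean processed intensity of its spots other than outliers was scaled by a 75th percentile, taken per array from the 315 probes detected on all arrays. Scaled values were summed over the 2 probes of a member, set to a floor of -5.22 and taken to log2. A probe was well above background where over 50% of its spots were. The 193 of 1247 miRNAs detected on all 3 arrays of a group were fitted with limma 3.58.1 in R 4.3.3 (Benjamini-Hochberg, threshold 0.05). The number of arrays limits the precision. Within a group, 43.2 to 74.6% of those probes differed between arrays beyond spot noise, which repeat hybridisations of 1 RNA could also do. No 2 arrays held the same values, and the arrays were counted as the labels give them. The procedure was tested on simulated data. Figures were drawn with matplotlib 3.10.9.

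Members and lists were chosen with earlier results of these data known. The named miRNAs were the 9 members, detected miRNAs of the related list, and the 3 nearest in course to each cluster. Normexp used median signals, as the files hold no mean signal column. Names are those of the array. Mature sequences are RefSeq's on GRCm38.p6, another build than the design's, and no coordinate of the design was used. miR-106a-5p and miR-486-5p were not found under those names and are not analysed here.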

Additional observations from a re-analysis of the deposited data

How the results depend on the processing

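Members past the threshold stayed at 0 in all 22 alternatives. The count of all miRNAs past it, 15 as reported, was 2 without scaling, 4 with normexp, 6 without a detection filter, 5 with slide row as a block, 3 with the replicate block and 5 to 39 when each array was left out in turn. Replicate numbers did not pair the samples: same-numbered deviations correlated at 0.12, -0.58 and 0.31, and the replicate block left 0 members past the threshold (limma adjusted p = 0.144 for miR-19a-3p). Scaling to the 75th percentile over all probes raised the median of all miRNAs by 0.41 and turned miR-17-5p (0.39), miR-19a-3p (0.15), miR-20a-5p (0.39), miR-19b-3p (0.28), miR-106b-5p (0.30) and miR-25-3p (0.34). There the medians were 0.39 for miR-17-92, 0.34 for miR-106b-25, 0.39 for the AAAGUGC class, 0.21 for the miR-19 pair and 0.38 for the AUUGCAC pair. The median over detected probes (shift 0.14) turned miR-17-5p (0.11), miR-20a-5p (0.12), miR-19b-3p (0.0094), miR-106b-5p (0.024) and miR-25-3p (0.068), with medians of 0.11, 0.068, 0.12, -0.058 and 0.11 in the same order. No scaling (shift 0.20) turned miR-17-5p (0.20), miR-20a-5p (0.18), miR-19b-3p (0.072), miR-106b-5p (0.086) and miR-25-3p (0.13), with medians of 0.18, 0.13, 0.19, 0.0044 and 0.17. Quantile normalization turned miR-17-5p (0.21), miR-20a-5p (0.033) and miR-25-3p (0.041), with medians of 0.041 for miR-106b-25, -0.093 for the miR-19 pair and 0.11 for the AUUGCAC pair. The authors' values (shift 0.11) turned miR-17-5p (0.048), miR-20a-5p (0.096) and miR-25-3p (0.044), with medians of 0.044, -0.082 and 0.085 for those 3. miR-92a-3p and miR-93-5p turned negative with normexp (-0.051 and -0.014) and with outlier spots kept (-0.017 and -0.029). With slide row as a block, which rests on aged array 1 alone against the young arrays, miR-93-5p was -0.14, the miR-17-92 median -0.17 and the AAAGUGC median -0.18. Leaving out each array in turn, miR-17-5p ranged from -0.12 to 0.081, miR-20a-5p from -0.065 to 0.039, miR-92a-3p from -0.055 to 0.12, miR-93-5p from -0.060 to 0.090 and the miR-17-92 median from -0.11 to -0.0047. At double the floor miR-17-5p lay at the floor on every array and has no value. Beyond the scaling shifts, the cause of these changes was not tested. Signal near background limits miR-17-5p and miR-18a-5p.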
